A study of Mus musculus with 6 samples.

Results

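The signaling route of interleukin-6 (IL-6) was followed through 10 genes in muscle RNA of FLExDUX4 mice and wild-type (WT) littermates. They were chosen by name and found by symbol among the rows with a mouse gene ID, and all 10 were found among 52550 genes, 1 row each. The list holds the receptors Il6ra, Il6st, Lifr and Osmr, the kinases Jak1 and Jak2, the transcription factor Stat3, and the feedback inhibitors Socs2, Socs3 and Cish. FLExDUX4 mice are hemizygous for a human DUX4 transgene, the gene misexpressed in facioscapulohumeral muscular dystrophy, inserted at the Rosa26 locus in inverted orientation. The mice carried no Cre driver here, so that the transgene is expressed only by leakage, and the leakage is not restricted to muscle fibers. There were 3 male FLExDUX4 mice and 3 male WT littermates with no treatment named. The sample labels give quadriceps at 13 weeks, whereas the study's methods name triceps and a younger age. No mouse gene row stands for the human transgene, so the genotype labels were not checked through it.

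IL-6 and related cytokines, such as leukemia inhibitory factor (LIF), oncostatin M and ciliary neurotrophic factor, signal through receptors that share the subunit gp130, encoded by Il6st. Most ligands also need further subunits, such as the IL-6 receptor alpha chain for IL-6, the oncostatin M receptor for oncostatin M, or the LIF receptor, which several of the ligands share. The bound complex activates Janus kinases (JAKs), which phosphorylate STAT3, and STAT3 then enters the nucleus and induces target genes that include Socs3, whose protein binds gp130 and JAKs and stops the signal. Cish and Socs2 belong to the same inhibitor family and are best known as targets of STAT5 downstream of growth hormone. In muscle this route is known for its part in the response to exercise, in regeneration by satellite cells and in wasting.

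The libraries were made with QuantSeq, which reads the 3′ end of polyadenylated RNA, so that the number of reads does not grow with the length of a transcript and the levels of different genes can be set side by side without dividing by length. The level is given as counts of a genotype brought to a common depth (CPM) after scaling of the 2 totals by the trimmed mean of M-values (TMM). Columns for single mice carry no name that ties them to a labelled mouse and were left out, so every value below is a total over the 3 mice of a genotype. A total has no replicate check, 1 mouse can decide it, and no test across mice was run. Intervals (95% CI) are Clopper-Pearson intervals for counting error only. Fewer cells of a type and less RNA per cell cannot be told apart in such bulk samples. On genes, the depth was 13110125 counts in the FLExDUX4 total and 18367364 in the WT total. All 10 skeletal muscle markers were abundant in both genotypes, with summed levels of 118978 and 119439 CPM.

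STAT proteins bind the letters TTCNNNGAA, which read the same on both strands. RefSeq windows from 250 bases before to 50 bases after the start of transcription on GRCm38.p6 were found for 9 of the 10 genes. The set of windows held none for Socs2. TTCNNNGAA occurred in the windows of 2 of these 9 genes, Socs3 and Cish, and in 8.3% of all 32851 windows. The sequences of Socs3 and Cish are shown because these inhibitors had the lowest ratios of the 10 genes, and that of Il6ra because it had the highest. Capitals mark TTCNNNGAA. The Socs3 sequence is the 250 bases before the start (chr11:117969367-117969616, minus strand), the Il6ra sequence is the same stretch of that gene (chr3:89913197-89913446, minus strand), and the Cish sequence is 30 bases across its start (chr9:107296654-107296683, plus strand).
Socs3: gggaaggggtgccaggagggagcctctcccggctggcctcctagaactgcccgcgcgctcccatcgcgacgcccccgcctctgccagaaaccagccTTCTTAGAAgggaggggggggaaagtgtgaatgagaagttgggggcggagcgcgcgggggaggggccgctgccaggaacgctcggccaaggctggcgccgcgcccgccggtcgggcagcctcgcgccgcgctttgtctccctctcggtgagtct
Cish: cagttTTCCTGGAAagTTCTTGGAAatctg
Il6ra: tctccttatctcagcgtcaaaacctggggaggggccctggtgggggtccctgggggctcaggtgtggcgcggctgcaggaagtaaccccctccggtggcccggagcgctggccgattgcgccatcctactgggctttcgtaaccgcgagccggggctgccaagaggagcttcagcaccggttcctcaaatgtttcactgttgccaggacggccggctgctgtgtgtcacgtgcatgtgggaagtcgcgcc
In Socs3 the match began 154 bases before the RefSeq start, and in Cish the 2 matches began at bases 1 and 12 from the RefSeq start. The GENCODE spans given below for these 2 genes begin further upstream. Socs3 begins there at 117970047 on the minus strand and Cish at 107296026 on the plus strand. By that annotation the Socs3 and Cish stretches both lie inside the gene. The Il6ra window held no such match, and neither did those of Il6st, Lifr, Osmr, Jak1, Jak2 and Stat3. The letters GTAAACA, searched on both strands as a forkhead (FOXO) motif, were in none of the 9 genes and in 3.65% of all windows. A match describes the letters and does not show that a factor binds there.

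Among the receptors, Il6ra and Osmr, which had the fewest counts, were higher in FLExDUX4 mice, while the shared subunit was nearly level. Il6ra (chromosome 3 of GRCm38, 89864059 to 89913196, minus strand, protein-coding), which encodes the chain that binds IL-6, had 209 counts in FLExDUX4 mice and 147 in WT mice, or 16.1 and 7.92 CPM. The FLExDUX4 total was the higher one even before scaling, although that genotype had fewer counts in all. The level was 2.03-fold higher, a log2 ratio of 1.02 (95% CI 0.71 to 1.34). Of the 13396 genes with enough counts to be tested, 5.77% had a ratio at least as high, and among the 4148 of them with a like number of counts (from 0.5 to 2 times that of Il6ra in both genotypes together) the share was 0.747%. Il6ra is also in the pathway tables that the study drew from these samples, so its direction is no independent evidence.

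Osmr (chromosome 15, 6813577 to 6874969, minus strand), which encodes the oncostatin M receptor, had 73 counts against 61, or 5.63 and 3.29 CPM. It too had the higher raw count in FLExDUX4 mice. Its log2 ratio was 0.77 (95% CI 0.27 to 1.29), or 0.50 (95% CI -0.01 to 1.01) with spike-in scaling. Of 3789 genes with a like number of counts, 9.58% had a ratio at least as high, and 32.1% were past 1.5-fold in either direction.

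Il6st (chromosome 13, 112464070 to 112510086, plus strand), which encodes the signal-transducing subunit gp130, had 1021 counts against 1338, or 78.7 and 72.1 CPM. Its log2 ratio was 0.13 (95% CI 0.01 to 0.24). Lifr, which encodes the LIF receptor and lies on chromosome 15 as Osmr does, had 874 counts against 1080, or 67.4 and 58.2 CPM. The ratio of Lifr was 0.21 (95% CI 0.08 to 0.34). Both ratios lay close to 0 and turned negative when the totals were scaled to spike-in RNAs, at -0.15 for Il6st and -0.06 for Lifr.

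**Figure D1:**
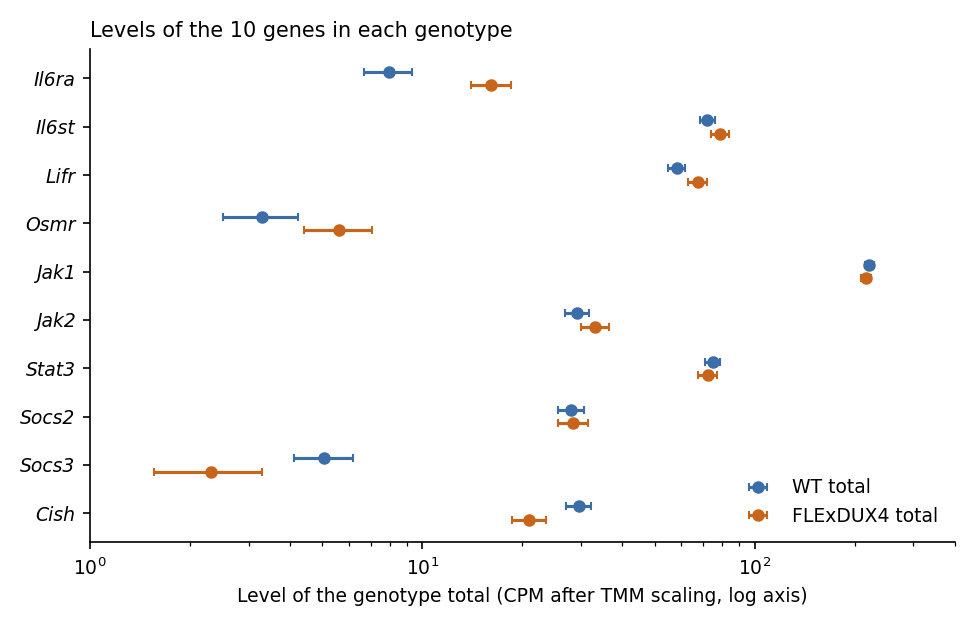
Levels of the 10 genes (CPM after TMM scaling, log axis) in the total of 3 WT mice (blue) and of 3 FLExDUX4 mice (orange), with bars for the exact 95% Poisson interval of counting error. The bars of Il6ra, Lifr, Osmr, Socs3 and Cish are clear of each other between the genotypes, while those of Il6st, Jak1, Jak2, Stat3 and Socs2 overlap.

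The kinases and STAT3 itself were nearly level. Jak1 (chromosome 4, 101152367 to 101265282, minus strand), the kinase on which gp130 signaling chiefly depends, had 2807 counts in FLExDUX4 mice and 4102 in WT mice, or 216 and 221 CPM. It had the highest level of the 10 genes in both genotypes, and its log2 ratio was -0.03 (95% CI -0.10 to 0.04). Jak2 (chromosome 19, 29251828 to 29313080, plus strand), which also serves the growth hormone receptor, had 429 counts against 543, or 33.1 and 29.3 CPM, and a ratio of 0.18 (95% CI -0.01 to 0.36). Stat3 (chromosome 11, 100885098 to 100939540, minus strand) had 937 counts against 1386, or 72.2 and 74.7 CPM, and a ratio of -0.05 (95% CI -0.17 to 0.07). The intervals of all 3 genes include 0 with TMM scaling. With spike-in scaling that of Jak2 still did, whereas Jak1 was at -0.31 (95% CI -0.38 to -0.24) and Stat3 at -0.32 (95% CI -0.45 to -0.20).

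The last 72 bases of Stat3 overlap the end of Stat5a on the opposite strand, and the strand setting of the counting is not given in the sources used here, so reads from these ends could have been taken by either gene. Stat5a had 132 counts against 206. Raver2 overlaps the last 4 bases of Jak1 and had 20 counts against 13. The other annotated genes that overlap members, among them Gm17041 across part of Cish on the opposite strand, were listed at 0 in both genotypes.

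The inhibitors differed among themselves. Socs3 (chromosome 11, 117966079 to 117970047, minus strand), the classical feedback inhibitor of gp130, had 30 counts in FLExDUX4 mice and 94 in WT mice, or 2.31 and 5.06 CPM. The level was 2.17-fold lower in FLExDUX4 mice, a log2 ratio of -1.12 (95% CI -1.78 to -0.52). Of 3703 genes with a like number of counts, 4.83% had a ratio at least as low, and 33.6% were past 1.5-fold in either direction.

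Cish (chromosome 9, 107296026 to 107302784, plus strand) had 272 counts against 548, or 21.0 and 29.5 CPM. Its log2 ratio was -0.49 (95% CI -0.71 to -0.28). The difference was under 1.5-fold, but only 3.08% of 3439 genes with a like number of counts had a ratio at least as low. Socs2 (chromosome 10, 95385362 to 95417180, minus strand), which restrains growth hormone signaling, had 369 counts against 520, or 28.4 and 28.0 CPM, and a ratio of 0.02 (95% CI -0.17 to 0.22). Thus, of the inhibitors, Socs3 and Cish had the lower level in FLExDUX4 mice and Socs2 was level with TMM scaling, while with spike-in scaling Socs2 was lower as well, at -0.25 (95% CI -0.45 to -0.06).

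Over the 10 genes, 3 were past 1.5-fold, Il6ra and Osmr on the higher side and Socs3 on the lower side. On the higher side were 6 of the 10 genes by any amount and on the lower side 4, against 49.9% and 50.1% of all genes tested. With the totals scaled to spike-in RNAs, 2 of the 10 genes were on the higher side, against 25.2% of all genes. Of all genes tested, 26.8% were past 1.5-fold, 13.2% higher and 13.5% lower, so that the share of the 10 genes (30%) was near that of all genes. Among genes of like count the share past 1.5-fold, averaged over the 10 genes, was 9.56%. For the 3 genes past 1.5-fold that share was higher, at 13.1% for Il6ra, 32.1% for Osmr and 33.6% for Socs3. Il6ra and Socs3 were past 2-fold, as were 13.4% of all genes, and Il6ra was not with spike-in scaling (0.75) or when scaled to the gene totals (0.99). The counting interval excluded 0 for 6 of the 10 genes (Il6ra, Il6st, Lifr and Osmr higher, Socs3 and Cish lower, of which Il6st was lost under several other scalings), against 41.1% of all genes tested, 20.5% higher and 20.6% lower. With spike-in scaling it excluded 0 for 7 genes, 1 higher (Il6ra) and 6 lower (Il6st, Jak1, Stat3, Socs2, Socs3 and Cish), against 7.59% of all genes higher and 47.1% lower. The median log2 ratio of the 10 genes was 0.07, and that of all genes tested was -0.001.

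**Figure D2:**
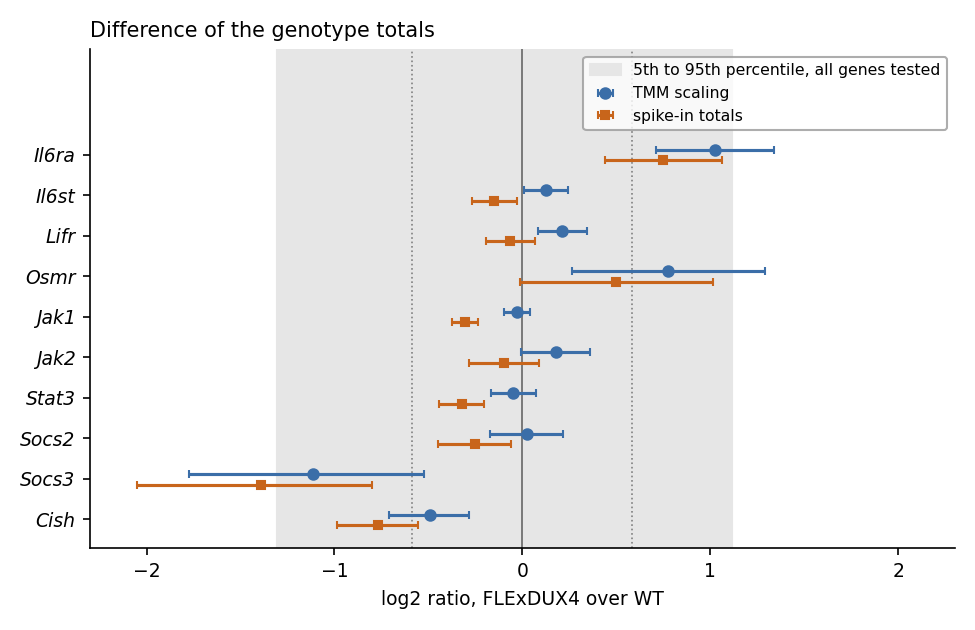
Log2 ratio of FLExDUX4 to WT totals for the 10 genes with 95% counting intervals, under TMM scaling (blue circles) and with the totals scaled to spike-in RNAs (orange squares). The gray band spans the 5th to 95th percentile of all genes tested under TMM (-1.30 to 1.11), dotted lines mark 1.5-fold, and all 10 TMM ratios lie inside the band.

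Scaling the totals to the ERCC and SIRV spike-in RNAs moved every gene by -0.28 on the log2 scale, and the median of all genes tested to -0.28. With that scaling Il6ra was at 0.75 (95% CI 0.44 to 1.06), Osmr at 0.50 (95% CI -0.01 to 1.01), Socs3 at -1.39 (95% CI -2.05 to -0.80) and Cish at -0.77 (95% CI -0.99 to -0.56). Osmr was then no longer past 1.5-fold and Cish was. Relative to the median of all genes, the 10 ratios are the same under either scaling.

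Ratios between 2 of the genes within a genotype need no scaling at all. Per 100 counts of Il6st, there were 20.5 counts of Il6ra in FLExDUX4 mice and 11.0 in WT mice, a log2 difference of 0.90 (exact conditional 95% interval 0.56 to 1.23). The same comparison gave 7.15 and 4.56 counts of Osmr, a difference of 0.65 (95% CI 0.12 to 1.18). For Lifr it gave 85.6 and 80.7, a difference of 0.08 (95% CI -0.09 to 0.26). By these totals the makeup of the receptors was shifted toward Il6ra and Osmr, and not detectably for Lifr.

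Per 100 counts of Stat3, there were 3.20 counts of Socs3 in FLExDUX4 mice and 6.78 in WT mice, a log2 difference of -1.08 (95% CI -1.74 to -0.46). Cish stood at 29.0 and 39.5 counts, a difference of -0.45 (95% CI -0.69 to -0.20), and Socs2 at 39.4 and 37.5, a difference of 0.07 (95% CI -0.16 to 0.30). Cish and Socs2 were also unequal against each other, with 73.7 counts of Cish per 100 of Socs2 in FLExDUX4 mice and 105 in WT mice, a difference of -0.52 (95% CI -0.81 to -0.22).

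The order of the levels was alike at the top and differed at the bottom. In both genotypes Jak1 came first, and Il6st and Stat3 followed without a difference beyond counting error between them. In FLExDUX4 mice Lifr came next and did not differ from Stat3, and Jak2, Socs2, Cish, Il6ra, Osmr and Socs3 followed, each step larger than counting error. In WT mice Lifr was below Il6st, and the neighbors Cish, Jak2 and Socs2, at 29.5, 29.3 and 28.0 CPM, could not be told apart. Il6ra, Socs3 and Osmr closed the order in WT mice, so that Socs3 was above Osmr there and below it in FLExDUX4 mice.

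**Figure D3:**
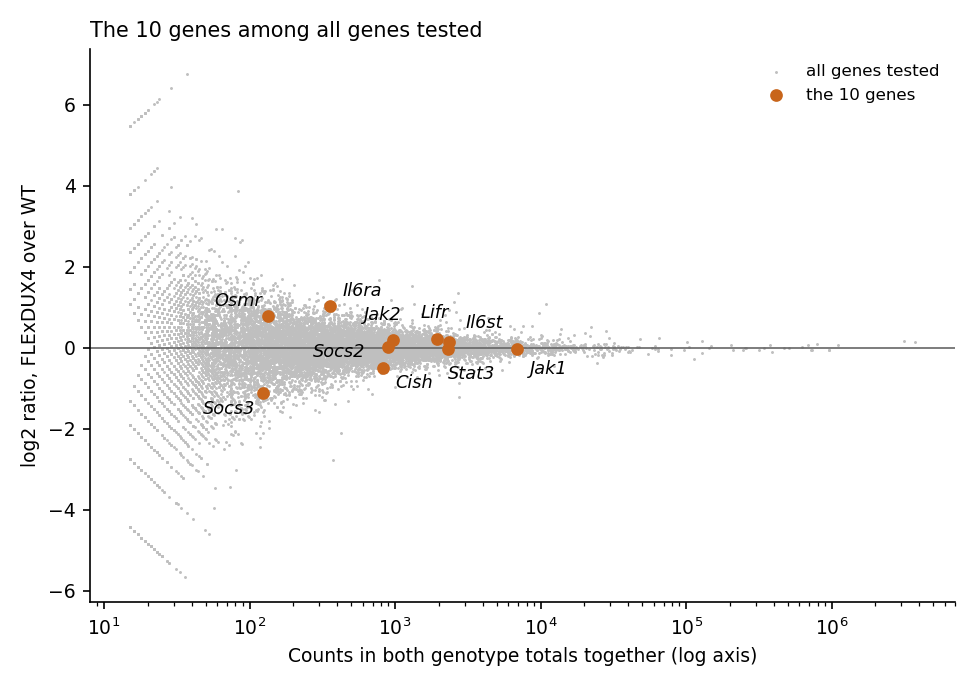
Log2 ratio of FLExDUX4 to WT totals against the counts of both totals together (log axis) for the 13396 genes tested (gray) and the 10 genes (orange). The spread of the gray points narrows with depth, so that Il6ra (356 counts) and Cish (820 counts) lie toward the edge of the cloud at their depth, whereas Osmr (134 counts) lies further inside it.

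The ligands of the family were scarce. Of 10 ligand genes, Il6, Osm and Cntf had no count in either genotype, and Lif had 0 counts in FLExDUX4 mice and 3 in WT mice. A count of 0 allows a level of up to 0.231 CPM in FLExDUX4 mice and 0.162 CPM in WT mice. Il11 had 8 counts against 3, Il27 had 0 against 5 and Ebi3 had 7 against 8. Only 3 ligand genes had enough counts to be tested. Ctf1, which encodes cardiotrophin-1, had 47 counts against 121, a log2 ratio of -0.84 (95% CI -1.37 to -0.35). Clcf1, which encodes a ligand of the ciliary neurotrophic factor receptor, had 2 counts against 14, a ratio of -2.02 (95% CI -5.47 to -0.17).

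None of the other receptors, JAKs, STATs and inhibitors tested was past 1.5-fold, with TMM or spike-in scaling, against 26.8% and 31.5% of all genes. Of the other receptors, Il11ra1, which serves interleukin-11, had the most counts, 461 against 739, with a log2 ratio of -0.16 (95% CI -0.34 to 0.005) that was -0.44 (95% CI -0.61 to -0.27) with spike-in scaling, and Il27ra and Il31ra had at most 2 counts in either genotype. The 7 other JAKs and STATs tested ranged from -0.12 to 0.27, and the interval of 1 of them excluded 0. This was Stat5b, the main STAT of growth hormone signaling, with 1398 counts against 1677 and a ratio of 0.25 (95% CI 0.15 to 0.36), which was -0.02 under spike-in scaling. Stat4 had no count. The 13 other inhibitors ranged from -0.29 to 0.52, and the intervals of 11 of them included 0 (with spike-in scaling 8 of the 13 excluded 0, all lower), while 41.1% of all genes excluded 0 and, with spike-in scaling, 47.1% did so on the lower side. With TMM scaling the other two were Socs5, with 107 counts in each genotype and a ratio of 0.52 (95% CI 0.12 to 0.92, or -0.16 to 0.64 under spike-in scaling), and the phosphatase gene Ptpn1, with 359 counts against 627 and a ratio of -0.29 (95% CI -0.48 to -0.10). Socs7 had the most counts of these, 1251 against 1865, with a ratio of -0.06 (95% CI -0.16 to 0.04, or -0.44 to -0.23 with spike-in scaling). Socs1, another inhibitor that acts directly on JAKs, had 13 counts against 22.

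Target genes of STAT3 differed in both directions. Of 20 such genes, 18 were tested, 12 with a higher and 6 with a lower level in FLExDUX4 mice (9 and 9 with spike-in scaling). Of all genes, 49.9% were higher, or 25.2% with spike-in scaling. The counting interval excluded 0 for 15 targets, 9 higher and 6 lower, against 20.5% of all genes higher and 20.6% lower. With spike-in scaling it excluded 0 for 3 higher and 6 lower, against 7.59% and 47.1% of all genes. Past 1.5-fold were 4 targets in each direction, against 13.2% of all genes higher and 13.5% lower. With spike-in scaling 1 (Myc) was past 1.5-fold on the higher side and 5 on the lower side (Pim1, Bcl3, Fos, Junb and Bcl6), against 7.82% and 23.7% of all genes. On the lower side, Pim1, which encodes a survival kinase, had 167 counts against 528, a log2 ratio of -1.14 (95% CI -1.40 to -0.89). Bcl3, which encodes a cofactor of NF-κB, had 4 counts against 31, a ratio of -2.29 (95% CI -4.40 to -0.94). The immediate early genes Fos and Junb had ratios of -2.10 (95% CI -2.53 to -1.71) and -0.76 (95% CI -1.15 to -0.39). Fos is in the study's pathway tables.

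On the higher side, Myc had 22 counts against 7, a log2 ratio of 2.10 (95% CI 0.89 to 3.64), and the cyclin gene Ccnd1, also in those tables, had 194 against 154, a ratio of 0.85 (95% CI 0.54 to 1.16). Il4ra, which encodes the interleukin-4 receptor, had 70 against 64, a ratio of 0.64 (95% CI 0.14 to 1.16, or -0.14 to 0.88 with spike-in scaling). Serpina3n had 21 against 17, a ratio of 0.81 with an interval that includes 0 (-0.17 to 1.83). The target with the most counts, Mcl1, which encodes a survival factor of the BCL2 family, had 1729 against 2080 and a ratio of 0.25 (95% CI 0.16 to 0.34) that was -0.03 under spike-in scaling. Vegfa, an angiogenic factor gene, had 1249 against 2117 and a ratio of -0.24 (95% CI -0.35 to -0.14). Lcn2 and Saa3, acute phase genes, had at most 6 counts in a genotype. Hp, the haptoglobin gene and also an acute phase gene, had 138 against 149, a ratio of 0.41 (95% CI 0.06 to 0.75). Cebpd (0.33), Mt1 (0.41), Mt2 (0.55) and Pim3 (0.30) were likewise higher with intervals that exclude 0, all under 1.5-fold. With spike-in scaling, of these and Hp, only the interval of Mt2 excluded 0 (0.05 to 0.50). The median ratio of the 18 genes was 0.27, or -0.002 with spike-in scaling.

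**Figure D4:**
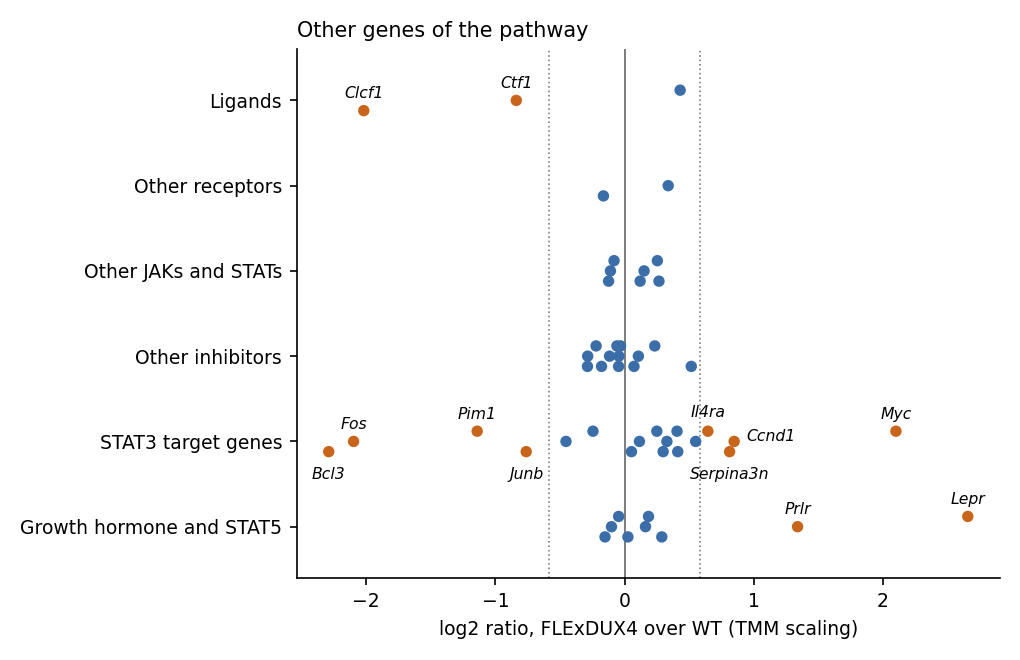
Log2 ratio of FLExDUX4 to WT totals (TMM scaling) for the tested genes of 6 lists around the 10 genes, 1 point a gene, with genes past 1.5-fold in orange and named. Dotted lines mark 1.5-fold, and the other receptors, JAKs, STATs and inhibitors all lie between them.

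Together these 5 lists hold 55 genes, of which 43 were tested and 10 (23.3%) were past 1.5-fold, 4 higher and 6 lower, against 26.8% of all genes. With spike-in scaling 8 were past 1.5-fold, 1 higher and 7 lower, against 31.5% of all genes.

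Growth hormone signals through STAT5 and also engages Jak2, Socs2 and Cish. In a list of growth hormone genes and other genes tied to STAT5, 2 of 9 tested were past 1.5-fold, against 26.8% of all genes, and both encode receptors of other hormones. Lepr, which encodes the leptin receptor, a relative of gp130, had 37 counts against 8, a log2 ratio of 2.66 (95% CI 1.60 to 4.04). Prlr, the prolactin receptor gene, had 11 against 6, a ratio of 1.34 with an interval that includes 0 (-0.17 to 3.11). Ghr, the growth hormone receptor gene, had 1409 counts against 2081 and a ratio of -0.05 (95% CI -0.14 to 0.05, or -0.42 to -0.22 with spike-in scaling), and Igf1, a target of growth hormone, had 471 against 662 and a ratio of 0.03 (95% CI -0.15 to 0.20), which was -0.25 (95% CI -0.42 to -0.08) under spike-in scaling. The other growth hormone genes, Igfals (0.29) and Igfbp3 (0.16, or -0.11 with spike-in scaling), were also under 1.5-fold. Igfbp5 had the most counts of this list, 2739 against 4352, and a ratio of -0.15 (95% CI -0.22 to -0.08). Of the proteases that act on receptors at the cell surface, Adam10 had 236 counts against 252, a ratio of 0.42 (95% CI 0.16 to 0.68, or -0.12 to 0.41 with spike-in scaling), and Adam17, which can release the soluble IL-6 receptor, had 156 against 188, a ratio of 0.25 (95% CI -0.07 to 0.56) that was -0.03 under spike-in scaling. Erap1, an aminopeptidase gene in the same list, had 91 against 159, a ratio of -0.29 (95% CI -0.68 to 0.09, or -0.95 to -0.18 with spike-in scaling). Counts at the 3′ end do not separate membrane-bound from soluble forms.

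Several of the 10 genes are expressed in cells other than muscle fibers, among them leukocytes, and markers of such cells were present. The 10 leukocyte markers summed to 79.5 CPM in FLExDUX4 mice and 74.8 CPM in WT mice, with the T cell gene Cd3e at 3 counts or fewer in both. Of the 8 tested, 4 were higher and 4 lower (3 and 5 with spike-in scaling). Cd163, a marker of resident macrophages, had a log2 ratio of 0.92 (95% CI 0.57 to 1.26) and Itgam, a myeloid integrin gene, had 24 counts against 17, while S100a8, a neutrophil gene, had -1.19 (95% CI -2.35 to -0.23). The macrophage genes Adgre1, with 24 counts against 55, and Cd68, with 23 against 52, had ratios of -0.66 (95% CI -1.44 to 0.04) and -0.64 (95% CI -1.44 to 0.07), and with spike-in scaling the intervals excluded 0 (-1.71 to -0.24 and -1.71 to -0.20). Csf1r, which encodes the receptor of a macrophage growth factor, had 0.01 (95% CI -0.26 to 0.28), or -0.26 under spike-in scaling. The ratios of the macrophage genes thus had both signs. The 8 adipocyte markers summed to 389 CPM in FLExDUX4 mice and 306 CPM in WT mice, with Ucp1 at 0 in both, and 6 of 7 tested were higher (4 with spike-in scaling), against 49.9% of all genes (25.2% with spike-in scaling). Among them were Cfd (0.88, or 0.60 with spike-in scaling), Adipoq (0.70 or 0.43), Retn (0.69 or 0.41) and Fabp4 (0.11 or -0.16), so that Adipoq and Retn were past 1.5-fold with TMM scaling only, whereas Lep, the leptin gene, had 12 counts against 31 and a ratio of -0.82 (95% CI -1.95 to 0.15, or -2.23 to -0.13 with spike-in scaling). The 5 blood markers, summing to 1279 and 1020 CPM, were all higher (4 of them with spike-in scaling). The 5 endothelial markers summed to 262 and 268 CPM, but Kdr, with 632 counts against 1334, had a ratio of -0.56 (95% CI -0.70 to -0.42) that was past 1.5-fold with spike-in scaling (-0.84), while Flt1 had 0.20 (-0.08 with spike-in scaling). The 5 fibroblast markers summed to 1286 and 1158 CPM and all were higher (2 with spike-in scaling), and the intervals of Col1a1 (0.53, or 0.26 with spike-in scaling) and Ly6a (0.44 or 0.16) excluded 0 under both scalings. The 3 satellite cell markers summed to 27.7 and 29.8 CPM. Of these, Pax7 had a ratio of -0.82 (95% CI -1.44 to -0.25), Myod1 one of -0.02 (-0.30 with spike-in scaling) and Myf5, with 23 counts against 26, one of 0.34 (95% CI -0.54 to 1.21). The genes with the most counts in these marker lists were Lyz2 for leukocytes (514 counts in FLExDUX4 mice and 747 in WT mice), Fabp4 for adipocytes (2929 and 3869), Hbb-bs for blood (9530 and 10628), Flt1 for endothelium (1380 and 1722), Dcn for fibroblasts (9583 and 13359), Myod1 for satellite cells (301 and 438) and Acta1 for muscle (466362 and 644116). The part of these cells in the differences of Il6ra, Osmr, Socs3 and Cish was not tested.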

How the data were processed

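Sequencing of 3′ ends (QuantSeq) was carried out on muscle RNA of 3 FLExDUX4 and 3 WT mice. Per the labels and the study's methods, the authors used cutadapt 1.16 for trimming, STAR for alignment to GRCm38 joined with ERCC and SIRV sequences, featureCounts for counting and DESeq2 for the comparison. The deposited table gives raw counts per gene summed over each genotype, and these totals were used here. It also holds 6 columns for single samples under names that no label carries, and the authors' fold changes and p-values with the mean they rest on. Neither was used. The edgeR test planned for values per sample was therefore not run.

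TMM scaling of the totals used edgeR 4.0.16 under R 4.3.3 and the 13396 genes that filterByExpr kept. The log2 ratio used a pseudocount of 0.5, and its interval the share of both totals found in FLExDUX4 mice (scipy 1.17.1). Past 1.5-fold means an absolute log2 ratio of at least 0.58. A count of 0 was given an upper limit of 3 counts. The code was tested on simulated counts. Members and gene lists were chosen with earlier results of these data known. All 10 members were named. From the other lists, the genes named were those past 1.5-fold with an interval that excludes 0, the gene with the most counts and genes at 3 counts or fewer in both totals. Other genes were named after their values were seen. Some genes of these lists are not reported here. Gene coordinates are from GENCODE M21 (GRCm38), whose release is later than the one the authors used, and are printed where the start equals the deposited one, which left out Lifr. Itgam was taken from the row with counts.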

Additional observations from a re-analysis of the deposited data

How the results depend on the processing

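No paired analysis was possible because only 1 total per genotype was used. This also left DESeq2 and the omission of each replicate in turn not run. The number of the 10 genes past 1.5-fold was 3 under every scaling, filter and pseudocount tried (RLE, upper quartile, gene totals, spike-in totals, a minimum of 10 counts in both totals, no filter, and pseudocounts of 1 and 0.1), although spike-in totals exchanged Osmr for Cish. Past 2-fold were 2 genes, Il6ra and Socs3, but 1, Socs3, with gene totals or spike-in totals. The number whose counting interval excludes 0 ranged from 5 to 7. Il6st was the one lost with upper quartile, gene totals, no filter and a minimum of 10 counts, and with spike-in totals 4 higher and 2 lower became 1 higher and 6 lower. The median ratio of the 10 genes was -0.20 with spike-in totals, a shift that this scaling gives every gene, and the signs of Il6st, Lifr, Jak2 and Socs2 turned with it. The sign of Socs2 also turned with gene totals. Of the 80 single values compared, 73 stayed within the counting interval, and the other 7 were all with spike-in totals. The number of pathway genes past 1.5-fold was 10, but 16 with no filter, where 51 genes were tested in place of 43, 8 with spike-in totals and 7 with at least 10 counts in each total, where 39 were tested. For Socs3 and Osmr, with 124 and 134 counts in all, depth limits the precision of the ratio most.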
